A study of Mus musculus with 8 samples.

Results

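The proteasome is the barrel-shaped protease that degrades ubiquitin-tagged proteins, and its subunits and assembly factors were followed across 4 populations of mouse CD4 single-positive thymocytes, the thymocytes that have kept CD4 and lost CD8. The members were all genes on the array whose symbol begins with Psma, Psmb, Psmc, Psmd, Psme, Psmf or Psmg, which gave 50 genes of the 21154 with a symbol. Of these, 48 were bright enough to test, among 13496 genes tested in all. Psma8, an alpha subunit of testis, and Psmb11, the catalytic subunit of the thymoproteasome of cortical thymic epithelium, were well above background on 0 of 8 arrays. The 48 tested members were well above background on all 8 arrays, so none passed through a single group. The prefix also caught Psmc3ip, a meiotic recombination factor, and Psme3ip1, which binds an activator, and neither is a proteasome part. That leaves 46 tested proteasome genes.

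Each population was measured on 2 one-colour arrays, which the labels call biological replicates. The Nr4a-TKO preTreg samples held Treg precursors labelled Nr4a-TKO, sorted as CD25-high, GITR-high and Nr4a3-high. The Foxp3-KO preTreg samples held precursors labelled Foxp3-KO, sorted as CD25-high and positive for a Foxp3 reporter. The WT Treg samples were regulatory T cells of wild-type mice sorted on Foxp3, and the WT Tconv samples their conventional CD4 counterparts, sorted as CD25-low. No wild-type precursor was measured, so genotype and sort gate cannot be told apart in any comparison of a precursor with a wild-type group. The precursor groups also differ from each other in both genotype and sort gate, so the same limit holds between them. The labels give no strain, age, sex or number of animals, and no promoter or Cre behind the deletions. All cells came from thymus and were lysed without culture. In sorted bulk RNA, fewer cells of a type and less RNA per cell cannot be told apart.

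The core particle, called 20S, is a stack of alpha and beta rings. Its 3 proteolytic sites sit in Psmb5, Psmb6 and Psmb7 in most cells, and are replaced by Psmb8, Psmb9 and Psmb10 in the immunoproteasome, which interferon induces and lymphocytes carry at rest. The 19S cap, made of the ATPases Psmc1 to Psmc6 and the non-ATPase Psmd subunits, recognises and unfolds ubiquitinated proteins. Dedicated chaperones build the particles, with Psmg1 to Psmg4 and Pomp acting on the core and Psmd5, Psmd9 and Psmd10 on the cap. PA28, made of Psme1 and Psme2, is an alternative cap that interferon also induces.

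The promoters of 3 genes on which the results turn are printed here, as 250 bases before the start and 30 bases from it, in RefSeq's sequence of build GRCm38.p6. Psmg1 was the proteasome gene with the largest differences, Psme1 the only one called higher against WT Tconv in 2 groups, and Psmb9 the immunoproteasome subunit with the largest difference from WT Tconv. Psmd3, whose differences are given with the cap, had no entry. Capitals mark matches on either strand to 1 of 5 motifs: CACGTG, the E-box; CCAAT, the box bound by NF-Y; TGACNNNGC, the core of the antioxidant response element; GAAA, 2 bases of any kind and GAAA, the core of the interferon-stimulated response element; and TTCNNNGAA, a STAT site. No 2 matches overlapped in these windows. The Psmg1 window lies at chr16:95990931-95991210 on the minus strand, the Psme1 window at chr14:55578244-55578523 on the plus strand, and the Psmb9 window at chr17:34187301-34187580 on the minus strand.
Psmg1: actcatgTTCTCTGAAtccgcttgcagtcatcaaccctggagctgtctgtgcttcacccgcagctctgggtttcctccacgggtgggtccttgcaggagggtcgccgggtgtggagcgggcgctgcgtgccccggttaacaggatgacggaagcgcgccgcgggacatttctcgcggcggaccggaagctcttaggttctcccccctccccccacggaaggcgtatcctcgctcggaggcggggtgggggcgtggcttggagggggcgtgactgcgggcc
Psme1: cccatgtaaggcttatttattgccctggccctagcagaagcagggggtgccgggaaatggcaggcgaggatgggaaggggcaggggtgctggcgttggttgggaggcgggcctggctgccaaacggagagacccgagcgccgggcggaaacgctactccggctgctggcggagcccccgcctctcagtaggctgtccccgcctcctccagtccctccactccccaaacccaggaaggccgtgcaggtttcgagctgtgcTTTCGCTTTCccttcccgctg
Psmb9: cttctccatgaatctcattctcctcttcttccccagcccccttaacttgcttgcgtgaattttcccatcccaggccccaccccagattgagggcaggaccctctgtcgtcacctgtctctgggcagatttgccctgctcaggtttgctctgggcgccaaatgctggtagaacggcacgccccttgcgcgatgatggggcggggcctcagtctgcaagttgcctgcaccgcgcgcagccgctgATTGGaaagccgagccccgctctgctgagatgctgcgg

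The Psmg1 window held 1 STAT match, the Psme1 window 1 interferon-element match just after the start, and the Psmb9 window 1 CCAAT match just before it. A promoter of 300 bases was listed for 40 of the 48 proteasome genes on the array, as 42 sequences. The interferon element occurred in 5 of these 42 (11.9%), against 3.44% of all 32851 promoters listed, and its 5 genes were Psmb3, Psmd4, Psmd9, Psme1 and Psmg4. The antioxidant core occurred in 14.3% of them against 12.4% of all, and CCAAT in 33.3% against 37.4%. The E-box was in 9.52% against 7.15%, and the STAT site, which Psmb8, Psmd2 and Psmg1 held, in 7.14% against 8.30%. A match is a description of letters and not a site.

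Levels are log2 processed Cy3 signal relative to the 75th percentile of the array, and differences are in log2 units between group means of 2 arrays. A difference was called at a Benjamini-Hochberg adjusted p under 0.05 in limma, over all 13496 genes. Proteasome genes moved little. The median absolute difference over the 46 proteasome genes lay between 0.08 in Foxp3-KO preTreg against WT Treg and 0.17 in WT Treg against WT Tconv, and no comparison had a proteasome gene that differed by more than 0.81. By comparison, the members' 2 replicate arrays differed by a median of 0.064 in Nr4a-TKO preTreg, 0.072 in Foxp3-KO preTreg, 0.044 in WT Treg and 0.036 in WT Tconv. The heat map of differences from WT Tconv shows the pale field that results, crossed by the dark stripes of Psmg1, Psmg2 and Psmd3.

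**Figure D1:**
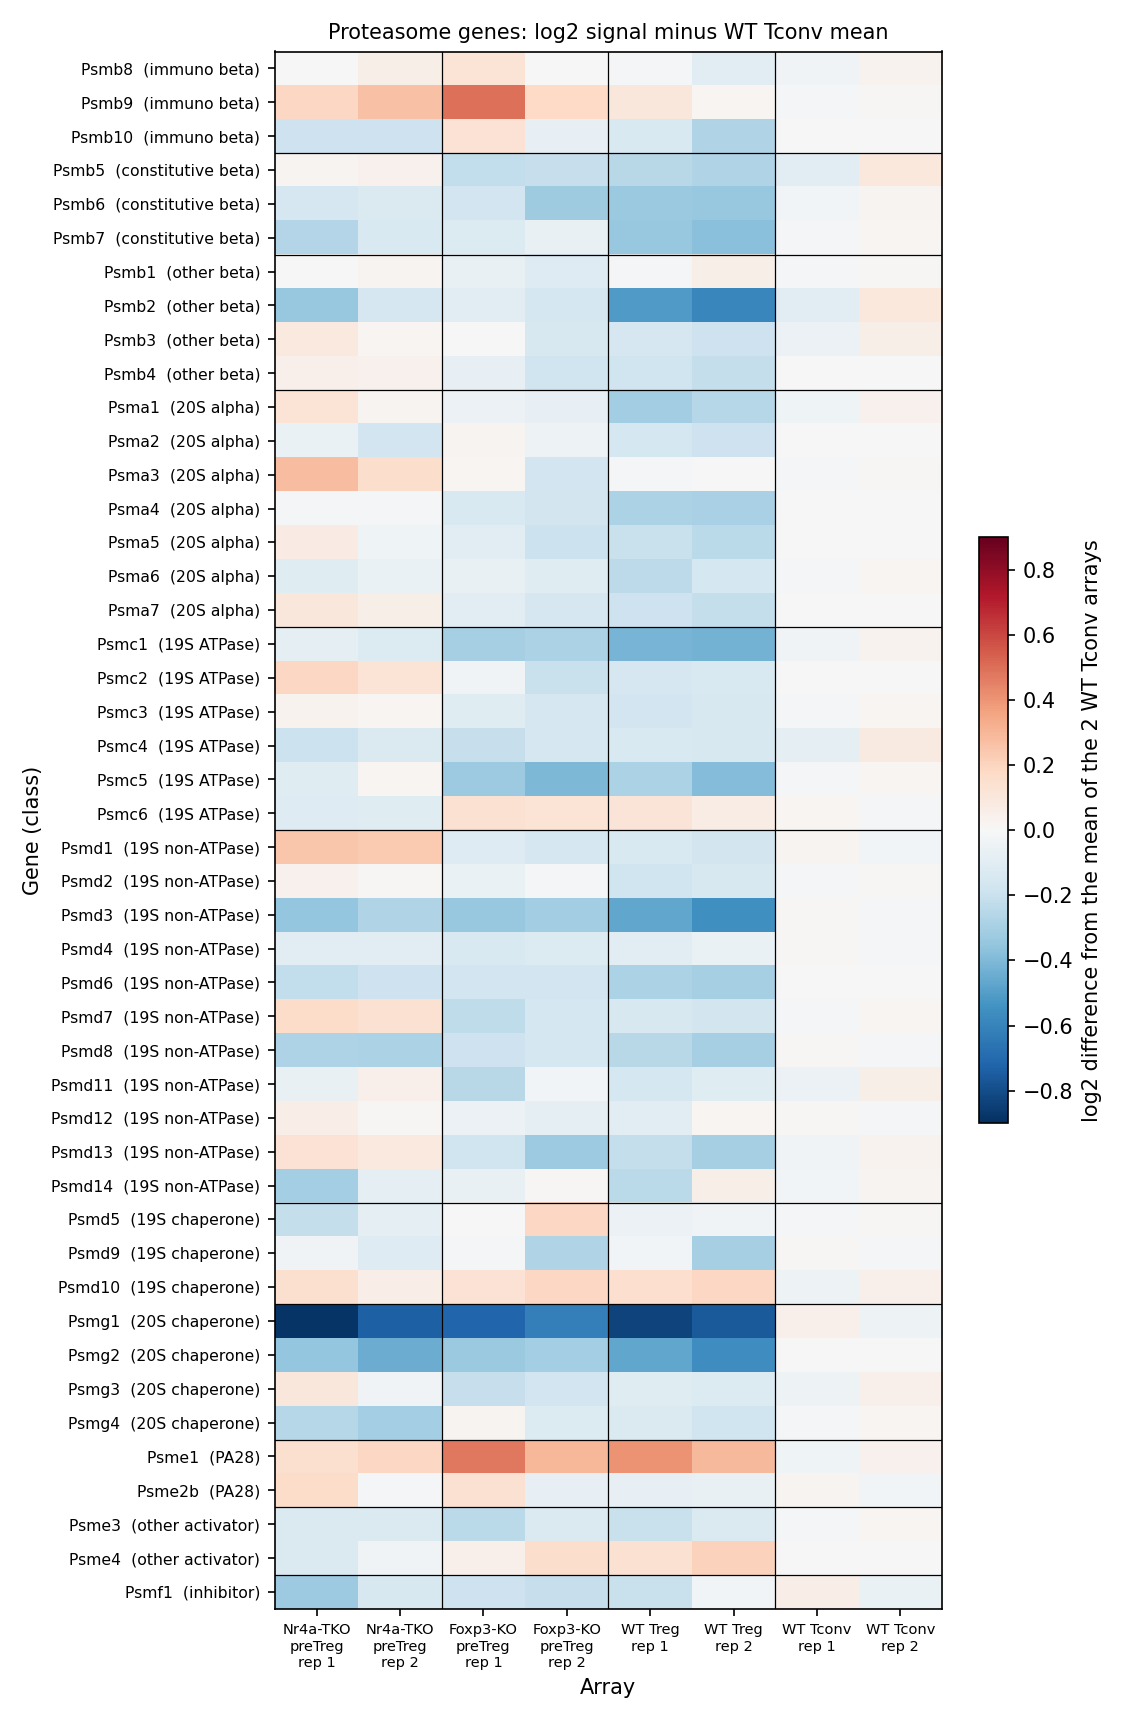
Log2 signal of the 46 tested proteasome genes on each of the 8 arrays (columns) minus the mean of the 2 WT Tconv arrays, with genes (rows) grouped by role and red for higher than that mean. Psmg1 is the darkest row, at about 0.66 to 0.81 below WT Tconv in the 3 other groups, and Psme1 is red in all 3.

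In WT Treg against WT Tconv, 14 of the 48 members were called, 1 higher and 13 lower, where 35.4% of all genes were called, 13.8% higher and 21.6% lower. The members' median difference was -0.16, beside -0.09 over all genes tested. In Nr4a-TKO preTreg against WT Tconv, 7 were called, 1 higher and 6 lower, where 48.2% of all genes were called, 21.4% higher and 26.8% lower. The medians there were -0.02 and -0.10. In Foxp3-KO preTreg against WT Tconv, 6 were called, 1 higher and 5 lower, where 24.8% of all genes were called, 10.4% higher and 14.4% lower. The medians were -0.13 and -0.10. In WT Treg against WT Tconv the members called lower, 13 of 48, were a larger share than that of all genes, 21.6%. There 40 of the 46 proteasome genes lay below WT Tconv and 6 above, beside 7916 and 5580 of all 13496 genes tested. The members' shares called in either direction, 29.2%, 14.6% and 12.5%, were each below that of all genes. This order depends on the scaling: with each array's median as the reference, 43.8% of members were called in Foxp3-KO preTreg against WT Tconv, where 37.2% of all genes were, and 60.4% in WT Treg against WT Tconv, where 42.3% were. With an intensity trend in the limma fit, 45.8% of members were called in WT Treg against WT Tconv, where 39.0% of all genes were.

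Nr4a-TKO preTreg against WT Treg had 12 members called, all 12 higher (25% of members). Of all genes 35.4% were called, 19.5% higher and 16.0% lower, so the members' share called higher was the larger. The medians were 0.13 and 0.01. The order of these shares called higher depends on the processing. Quantile normalization had 8 of 48 members called higher, beside 2472 of all 13496 genes, a smaller share. A fit of only these 2 groups had 4 of 48, beside 2238 of all genes, also smaller. It was smaller too with a replicate block and without the filter on dim probes. Under the other scalings, filters and fits of all arrays the members' share stayed the larger. Foxp3-KO preTreg against WT Treg had 0 of 48 called by limma on their brightest probes, with 6 at an unadjusted p under 0.05. There 6.40% of all genes were called, 3.48% higher and 2.93% lower. The medians were 0.07 and 0.00. Nr4a-TKO preTreg against Foxp3-KO preTreg had 5 called, 4 higher and 1 lower, where 33.8% of all genes were called, 18.1% higher and 15.7% lower. The medians were 0.05 and 0.02. The comparisons share groups, so they are not separate evidence. With a further minimum of 1.5-fold, Psmg1 was left in Nr4a-TKO preTreg against WT Tconv (1 of 48, where 30.3% of all genes were left) and in Foxp3-KO preTreg against WT Tconv (1 of 48, 13.9% of all genes). Psmg1 and Psmc3ip were left in WT Treg against WT Tconv (2 of 48, 20.5%), and Psmc3ip in Nr4a-TKO preTreg against WT Treg (1 of 48, 21.9%). No member was left in Foxp3-KO preTreg against WT Treg (4.93% of all genes) or in Nr4a-TKO preTreg against Foxp3-KO preTreg (20.8%). Of 42 called differences of the genes named by rule, 5 held with each of the 8 arrays left out in turn: Psmg1 in Nr4a-TKO preTreg and in WT Treg, Psmg2 and Psmd3 in WT Treg, each against WT Tconv, and Psmc3ip in Nr4a-TKO preTreg against WT Treg. The other calls were lost without at least 1 array.

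**Figure D2:**
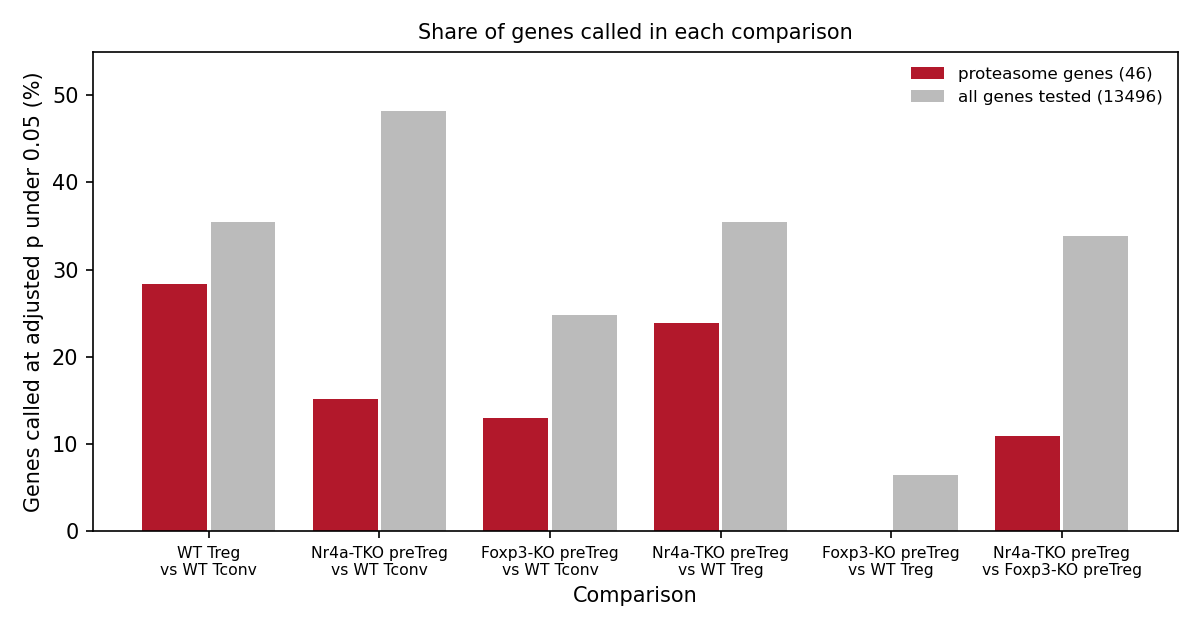
Percent of genes called in either direction at an adjusted p under 0.05 (vertical axis) in each of the 6 comparisons, for the 46 proteasome genes (red) and all 13496 genes tested (grey). With scaling to the 75th percentile the red bar is lower than the grey one in all 6 comparisons, which median scaling turns round in 2 of them and an intensity trend in 1, and it is 0 in Foxp3-KO preTreg against WT Treg.

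All 8 arrays lay on 1 slide, with Nr4a-TKO preTreg and WT Tconv in row 1 and Foxp3-KO preTreg and WT Treg in row 2. Slide row and group therefore cannot be told apart in 4 of the 6 comparisons. The comparisons within a row are Nr4a-TKO preTreg against WT Tconv, with 7 members called, and Foxp3-KO preTreg against WT Treg, with 0. WT Tconv and Foxp3-KO preTreg lay in columns 1 and 2, Nr4a-TKO preTreg and WT Treg in columns 3 and 4. Slide position and group therefore cannot be told apart in any of the 6 comparisons. All 8 T cell markers were above background on every array, but they were not level. Against WT Tconv, 7 were called lower in WT Treg (median difference -0.48), 3 in Nr4a-TKO preTreg (-0.27) and 2 in Foxp3-KO preTreg (-0.21). None was called higher, and 21.6%, 26.8% and 14.4% of all genes were called lower in these comparisons. The 5 regulatory T cell genes were called higher than WT Tconv in the 3 other groups. Of all genes 21.4% were called higher in Nr4a-TKO preTreg, 10.4% in Foxp3-KO preTreg and 13.8% in WT Treg. The 5 include the genes of the sort markers CD25, GITR and Foxp3, so the sort itself set part of this outcome. Nr4a1 read 7.73 and 7.96 in the libraries labelled Nr4a-TKO preTreg, 7.17 and 7.60 in Foxp3-KO preTreg, 7.28 and 7.62 in WT Treg, against 6.84 and 6.83 in WT Tconv. Nr4a2 and Nr4a3 were also well above background on all 8 arrays. Foxp3 read 1.97 and 1.74 in the libraries labelled Foxp3-KO preTreg, against 5.004 and 4.718 in WT Treg. The sources used here do not place these probes relative to the deleted parts, so the values do not check the genotypes. The summed signal of 6 proliferation genes (75th percentile = 1) was 91.6 and 88.8 in Nr4a-TKO preTreg, 58.5 and 63.8 in Foxp3-KO preTreg, 32.8 and 32.8 in WT Treg, and 79.8 and 80.2 in WT Tconv. Nr4a-TKO preTreg had the highest sum and WT Treg the lowest, and all 6 genes were called lower in WT Treg than in WT Tconv. The sum of 8 B cell markers was 66.9 and 16.9 in Nr4a-TKO preTreg, 20.1 and 4.81 in Foxp3-KO preTreg, 5.84 and 4.23 in WT Treg, and 2.26 and 2.15 in WT Tconv. The sum of 11 myeloid markers was 198.1 and 135.6 in Nr4a-TKO preTreg, 174.2 and 107.9 in Foxp3-KO preTreg, 137.6 and 126.5 in WT Treg, and 75.5 and 77.0 in WT Tconv. Both sums were highest on Nr4a-TKO preTreg replicate 1 and lowest in WT Tconv. Itgam and Ctss are bright in all groups and hide larger differences of the other myeloid genes: against WT Tconv, 10 of 11 were called higher and 1 lower in Nr4a-TKO preTreg (median difference 3.71), 7 higher in Foxp3-KO preTreg (3.19) and 5 higher in WT Treg (1.45). Of 7 B cell markers tested, 6 were called higher in Nr4a-TKO preTreg (median 4.10), 1 in Foxp3-KO preTreg (2.49) and 0 in WT Treg (0.69).

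Among the assembly chaperones of the core, Psmg1 and Psmg2 were lower in all 3 other groups than in WT Tconv. Their products form a heterodimer on which the alpha ring assembles. Psmg1 read 3.90 and 4.05 in Nr4a-TKO preTreg, 4.07 and 4.17 in Foxp3-KO preTreg and 3.95 and 4.03 in WT Treg, against 4.83 and 4.74 in WT Tconv. The WT Tconv arrays were the 2 highest. Nr4a-TKO preTreg and WT Treg overlapped, and both Foxp3-KO preTreg arrays lay above them. Psmg1 thus fell by 42.8% in Nr4a-TKO preTreg (log2 difference -0.81 ± 0.09 SE, adjusted p = 0.00202 in limma), and fell by 36.9% in Foxp3-KO preTreg (-0.66, adjusted p = 0.00849) and fell by 42.4% in WT Treg (-0.80, adjusted p = 0.00277). Its other probe gave log2 differences of -0.87 in Nr4a-TKO preTreg, -0.61 in Foxp3-KO preTreg and -0.82 in WT Treg, all called.

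Psmg2 read 2.94 and 2.85 in Nr4a-TKO preTreg, 2.96 and 2.99 in Foxp3-KO preTreg and 2.83 and 2.73 in WT Treg, against 3.29 and 3.30 in WT Tconv. Every WT Tconv array was above every other array. The log2 difference was -0.40 in Nr4a-TKO preTreg (limma adjusted p = 0.00857), -0.32 in Foxp3-KO preTreg (adjusted p = 0.0305) and -0.52 in WT Treg (adjusted p = 0.00541). Psmg3 and Psmg4 form the second chaperone pair of the alpha ring. Psmg4 was called lower in Nr4a-TKO preTreg (-0.28 ± 0.08 SE, adjusted p = 0.0313), and its differences of -0.05 in Foxp3-KO preTreg and -0.15 in WT Treg were not called. Psmg3 was called in none of the 6 comparisons, with differences from WT Tconv of 0.04, -0.19 and -0.12 in Nr4a-TKO preTreg, Foxp3-KO preTreg and WT Treg. None of Psmg1, Psmg2, Psmg3 and Psmg4 was called between any 2 of the 3 other groups.

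Without WT Tconv replicate 1 or 2, the other calls of Psmg1 and Psmg2 were lost, and that of Psmg2 in Foxp3-KO preTreg also without Foxp3-KO preTreg replicate 1 or either WT Treg array. With an array left out, Psmg1 in Foxp3-KO preTreg had an adjusted p of up to 0.0719, Psmg2 in Nr4a-TKO preTreg of up to 0.0587 and Psmg2 in Foxp3-KO preTreg of up to 0.157, with the direction kept each time.

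**Figure D3:**
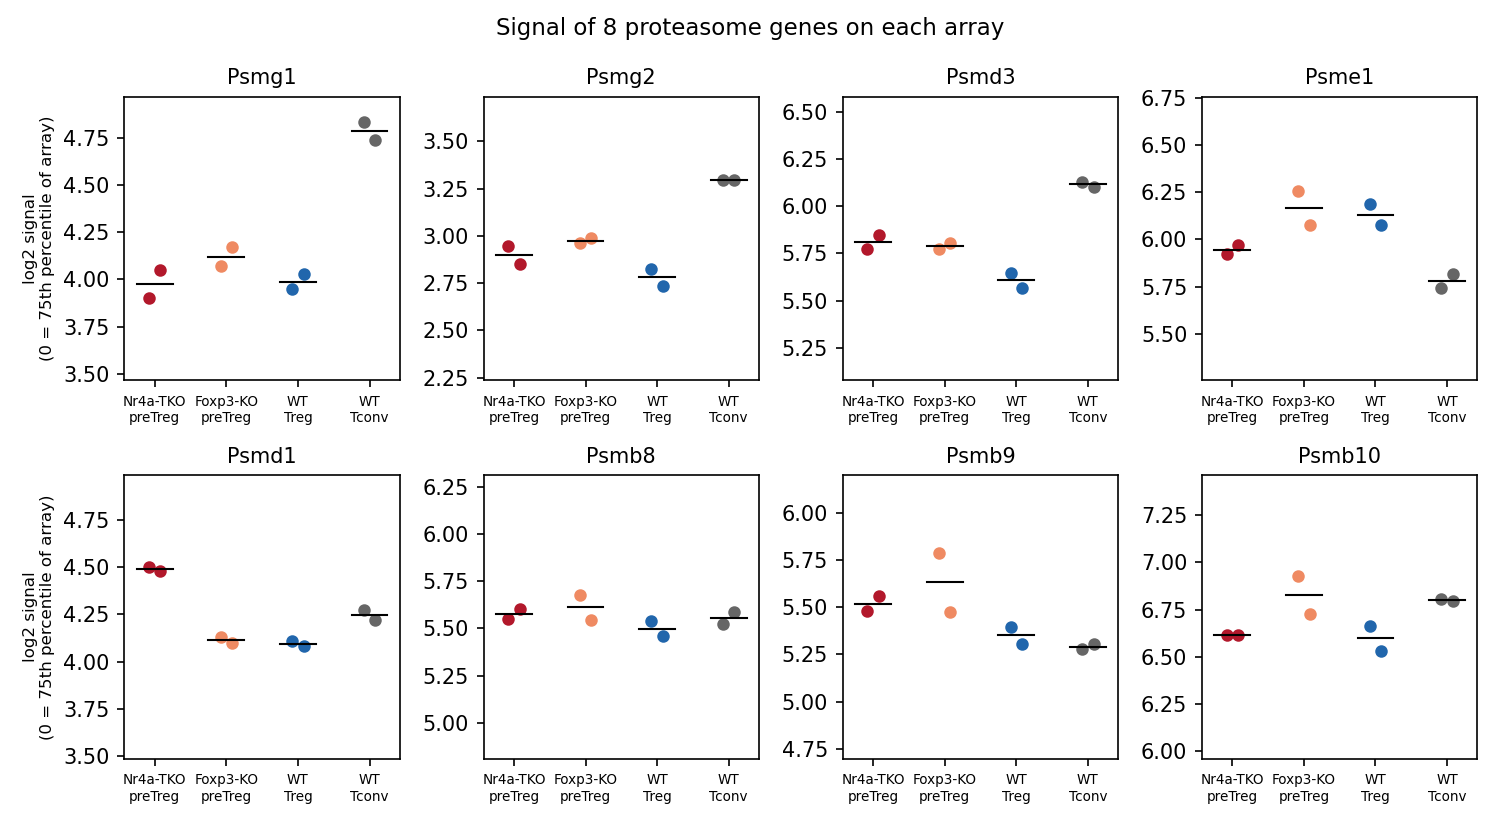
Log2 signal of 8 proteasome genes (vertical axes, each 1.5 log2 units tall, 0 = 75th percentile of the array) by group, with a dot per array and a bar at the mean of the 2 arrays. Psmg1, Psmg2 and Psmd3 have both WT Tconv dots at the top, Psmd1 has both Nr4a-TKO preTreg dots at the top, and Psmb8 overlaps across groups.

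The catalytic subunits of the immunoproteasome, Psmb8, Psmb9 and Psmb10, were called in 0 of the 6 comparisons. Psmb8, the chymotrypsin-like subunit, read 5.55 and 5.60 in Nr4a-TKO preTreg, 5.68 and 5.55 in Foxp3-KO preTreg, 5.54 and 5.46 in WT Treg, and 5.52 and 5.58 in WT Tconv. The groups overlapped, and the 95% intervals of the difference from WT Tconv were -0.18 to 0.22 in Nr4a-TKO preTreg, -0.14 to 0.26 in Foxp3-KO preTreg and -0.25 to 0.15 in WT Treg. Psmb9, the subunit that replaces Psmb6, read 5.48 and 5.56 in Nr4a-TKO preTreg, 5.79 and 5.47 in Foxp3-KO preTreg, 5.40 and 5.31 in WT Treg, and 5.28 and 5.30 in WT Tconv. WT Tconv was lowest on both arrays. The differences were 0.23 (adjusted p = 0.16), 0.34 (adjusted p = 0.0869) and 0.06 (adjusted p = 0.726) in Nr4a-TKO preTreg, Foxp3-KO preTreg and WT Treg, and none was called. Psmb10, which replaces Psmb7, differed from WT Tconv by -0.18 in Nr4a-TKO preTreg, 0.03 in Foxp3-KO preTreg and -0.20 in WT Treg, and none was called.

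All 3 immunoproteasome subunits read higher on Foxp3-KO preTreg replicate 1 than on replicate 2, as did the B cell and myeloid sums; their part in these values was not tested. Without replicate 1 the Psmb9 difference in Foxp3-KO preTreg was 0.18 and not called, and without replicate 2 it was 0.50 with an adjusted p of 0.0176.

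Of the 3 constitutive subunits, Psmb6 and Psmb7 were called lower in WT Treg than in WT Tconv, by -0.34 ± 0.08 SE (adjusted p = 0.0228) and -0.36 ± 0.07 SE (adjusted p = 0.0169). Psmb6, the caspase-like subunit, read 6.12 and 6.12 in WT Treg, against 6.43 and 6.49 in WT Tconv. Psmb7, the trypsin-like subunit, read 2.84 and 2.81 in WT Treg, against 3.17 and 3.21 in WT Tconv. In both genes the 2 groups were separate, and both calls were lost without any 1 of the 4 arrays compared (adjusted p of up to 0.132 and 0.108). Psmb5, the chymotrypsin-like subunit, differed by -0.26 in WT Treg (adjusted p = 0.0584 in limma). In a separate limma fit of single probes, its other probe differed by -0.25 with an adjusted p of 0.0419, where the brightest had 0.0642. Psmb5 was called higher in Nr4a-TKO preTreg than in WT Treg (0.29 ± 0.08 SE, adjusted p = 0.0437), with 6.981 and 6.995 in Nr4a-TKO preTreg, against 6.71 and 6.69 in WT Treg. None of the 3 was called between either precursor group and WT Tconv.

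Each immunoproteasome subunit was then set against the constitutive one it replaces, as the difference of the 2 log2 values on an array, counted from its WT Tconv mean. This shift is a description and was not tested. For Psmb9 with Psmb6 it was 0.34 and 0.40 in Nr4a-TKO preTreg, 0.67 and 0.50 in Foxp3-KO preTreg and 0.44 and 0.36 in WT Treg, against 0.02 and -0.02 in WT Tconv. All 6 arrays lay above both WT Tconv arrays. For Psmb8 with Psmb5 it was -0.03 and 0.02 in Nr4a-TKO preTreg, 0.35 and 0.20 in Foxp3-KO preTreg and 0.24 and 0.18 in WT Treg, against 0.06 and -0.06 in WT Tconv. There the Nr4a-TKO preTreg arrays lay within the WT Tconv range, and the Foxp3-KO preTreg and WT Treg arrays, which share a slide row, lay above it. For Psmb10 with Psmb7 it was 0.08 and -0.04 in Nr4a-TKO preTreg, 0.25 and -0.01 in Foxp3-KO preTreg and 0.21 and 0.11 in WT Treg, against 0.02 and -0.02 in WT Tconv.

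**Figure D4:**
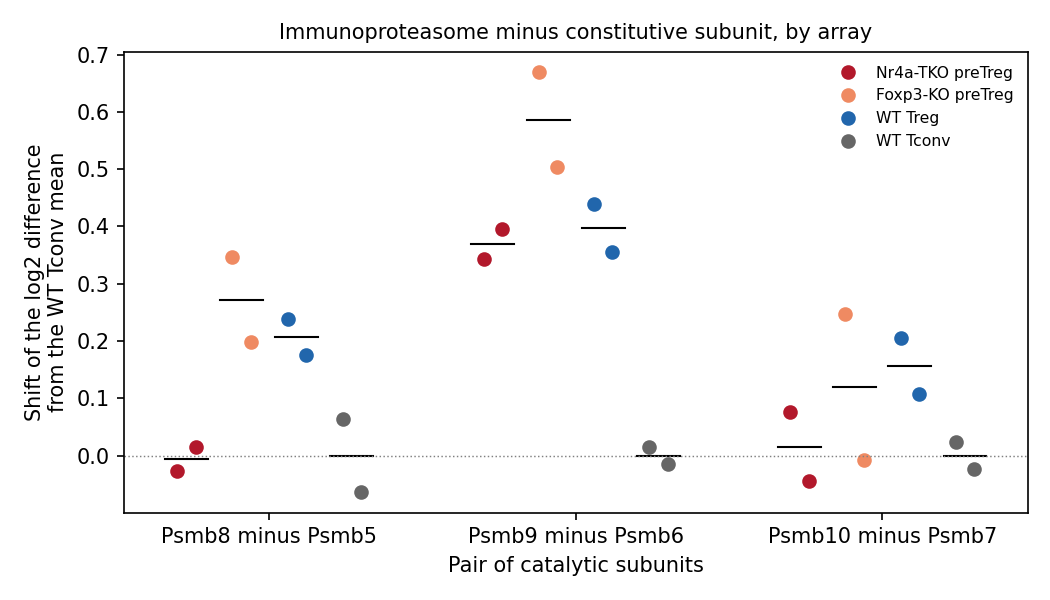
Shift of the log2 difference between an immunoproteasome subunit and its constitutive counterpart from the WT Tconv mean (vertical axis), for 3 pairs, with a dot per array, a bar at the mean of 2 arrays and colour for the group. For Psmb9 minus Psmb6 the 3 groups other than WT Tconv sit between 0.34 and 0.67, and for Psmb8 minus Psmb5 Nr4a-TKO preTreg sits at 0 beside WT Tconv.

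Psme1, the alpha subunit of PA28, was the only proteasome gene called higher than WT Tconv in 2 groups. It read 5.92 and 5.97 in Nr4a-TKO preTreg, 6.25 and 6.08 in Foxp3-KO preTreg and 6.19 and 6.07 in WT Treg, against 5.74 and 5.82 in WT Tconv. Both WT Tconv arrays were the lowest. The difference was called in Foxp3-KO preTreg (0.39 ± 0.09 SE, 30.7% higher, adjusted p = 0.0333) and WT Treg (0.35 ± 0.09 SE, 27.5% higher, adjusted p = 0.0324), and at 0.17 it was not called in Nr4a-TKO preTreg (adjusted p = 0.179). The difference between Nr4a-TKO preTreg and WT Treg, -0.18 (adjusted p = 0.162), was not called either. Its printed window holds the interferon element, as do the listed promoters of Psmb3, Psmd4, Psmd9 and Psmg4, none of which was called higher than WT Tconv. Any part of the element in these values was not tested. Both Psme1 calls were lost when each array's median, not its 75th percentile, was the reference, at 0.23 in Foxp3-KO preTreg and 0.20 in WT Treg, and without any 1 of the WT Tconv, WT Treg or Nr4a-TKO preTreg arrays or, for Foxp3-KO preTreg, its replicate 1, with adjusted p of up to 0.176 in Foxp3-KO preTreg and 0.166 in WT Treg.

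The array names no probe Psme2. Its 3 probes of this kind carry the accession of Psme2b, a near-identical copy, so Psme2 and Psme2b cannot be told apart here. The brightest was called in 0 of the 6 comparisons. Another was called higher in WT Treg than in WT Tconv (0.56) and lower than WT Treg in Nr4a-TKO preTreg (-0.64) and Foxp3-KO preTreg (-0.44), so the probes disagree. Psme3, which forms the nuclear activator PA28 gamma, and Psme4, which encodes the activator PA200, were called in no comparison. Psme3 differed from WT Tconv by -0.13, -0.19 and -0.17, and Psme4 by -0.08, 0.10 and 0.17, in Nr4a-TKO preTreg, Foxp3-KO preTreg and WT Treg. The other Psme4 probe differed by -0.09, 0.02 and -0.16, none called, so the direction in WT Treg depends on the probe. Psmf1, the inhibitor PI31, was called in none, at -0.23 in Nr4a-TKO preTreg, -0.20 in Foxp3-KO preTreg and -0.11 in WT Treg.

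The 7 alpha-ring genes tested were all at or below WT Tconv in WT Treg, as were 7916 of all 13496 genes. The 2 called lower there (28.6%, beside 21.6% of all genes) were Psma1 (-0.28 ± 0.07 SE) and Psma4 (-0.29 ± 0.06 SE). In Nr4a-TKO preTreg against WT Treg, all 7 differences were positive, as were 6872 of all 13496. The 3 called higher (42.9%, beside 19.5% of all genes) in limma were Psma1 (0.36, adjusted p = 0.0171), Psma4 (0.27, adjusted p = 0.0213) and Psma7 (0.28, adjusted p = 0.0244). The alpha ring gates entry to the core. Psma1 read 5.09 and 4.99 in Nr4a-TKO preTreg, against 4.65 and 4.71 in WT Treg and 4.931 and 5.003 in WT Tconv. WT Treg was the low group, and the other 2 overlapped. Psma3 had the largest difference of the ring in Nr4a-TKO preTreg against WT Tconv, 0.22, and it was not called (adjusted p = 0.097). No alpha gene was called in a precursor group against WT Tconv, or between the precursor groups.

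Among the 4 beta subunits without an active site, Psmb2 was called lower in WT Treg than in WT Tconv (-0.55 ± 0.11 SE, adjusted p = 0.0137). It read 1.42 and 1.34 in WT Treg, against 1.83 and 2.03 in WT Tconv, with 1.59 and 1.78 in Nr4a-TKO preTreg and 1.84 and 1.77 in Foxp3-KO preTreg. The WT Treg arrays were the lowest of the 8. Psmb4 was called higher in Nr4a-TKO preTreg than in WT Treg (0.24, adjusted p = 0.0462), and Psmb1 and Psmb3 were called in no comparison.

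In the 19S cap, Psmd3, a scaffold subunit of the lid, was lower in all 3 groups than in WT Tconv. It read 5.77 and 5.85 in Nr4a-TKO preTreg, 5.77 and 5.80 in Foxp3-KO preTreg and 5.65 and 5.57 in WT Treg, against 6.13 and 6.10 in WT Tconv. All WT Tconv values lay above all others. The difference was -0.31 in Nr4a-TKO preTreg (limma adjusted p = 0.0164), -0.33 in Foxp3-KO preTreg (adjusted p = 0.026) and -0.51 in WT Treg (adjusted p = 0.00496), each with an SE of 0.07. With Psmg1 and Psmg2, Psmd3 made up the 3 of 46 proteasome genes called lower in all 3 comparisons with WT Tconv. Of the 46, 0 were called higher in all 3, 5 were called in 2, 7 in 1 and 31 in none. These patterns were not counted over all genes, and the 3 comparisons share the WT Tconv arrays. Singly, 26.8% of all genes were called lower in Nr4a-TKO preTreg, 14.4% in Foxp3-KO preTreg and 21.6% in WT Treg. The Psmd3 calls in Nr4a-TKO preTreg and Foxp3-KO preTreg were lost without either WT Tconv array or the precursor's replicate 1, at adjusted p of up to 0.1 and 0.153.

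Psmd1, the large scaffold of the cap's base, was the 1 proteasome gene of 46 called higher in Nr4a-TKO preTreg than in each of the 3 other groups. This pattern was not counted over all genes. Psmd1 is given here by array. It read 4.50 and 4.48 in Nr4a-TKO preTreg, 4.13 and 4.10 in Foxp3-KO preTreg, 4.11 and 4.08 in WT Treg, and 4.27 and 4.22 in WT Tconv. The Nr4a-TKO preTreg arrays were the 2 highest and the WT Tconv arrays the next. It was called higher in Nr4a-TKO preTreg than in WT Treg (0.40 ± 0.06 SE, adjusted p = 0.00852), Foxp3-KO preTreg (0.38 ± 0.06 SE, adjusted p = 0.0106) and WT Tconv (0.24 ± 0.06 SE, adjusted p = 0.0256). Median scaling gave 0.17 against WT Tconv and ended that call, as did leaving out any array but those of Foxp3-KO preTreg (adjusted p of up to 0.145). The lid subunits Psmd7 and Psmd13 were also called higher in Nr4a-TKO preTreg than in WT Treg (0.31 and 0.36) and Foxp3-KO preTreg (0.34 and 0.36), and their differences from WT Tconv were not called.

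The lid subunits Psmd6 and Psmd8 were called lower than WT Tconv in Nr4a-TKO preTreg (-0.21 and -0.28) and WT Treg (-0.29 and -0.27), and at -0.17 and -0.17 they were not called in Foxp3-KO preTreg. Of the 6 ATPases, which form the unfolding ring, Psmc1 and Psmc5 were called lower than WT Tconv in Foxp3-KO preTreg (-0.29 and -0.37) and WT Treg (-0.42 and -0.34). Psmc1 read 5.70 and 5.72 in Foxp3-KO preTreg and 5.59 and 5.58 in WT Treg, against 5.97 and 6.04 in WT Tconv. Both genes were called higher in Nr4a-TKO preTreg than in WT Treg (0.32 and 0.29), as was Psmc2 (0.30). Psmc5 was called higher (0.32) and Psmc6 lower (-0.24) in Nr4a-TKO preTreg than in Foxp3-KO preTreg. The Psmc6 call was lost with each of the 8 arrays left out (limma adjusted p of up to 0.118) and the Psmc5 call with any array left out but Foxp3-KO preTreg replicate 1 (up to 0.125). Psmc3 and Psmc4 were called in no comparison.

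The 3 cap chaperones were called in none of the 6 comparisons by their brightest probes. Psmd10, also known as gankyrin, differed from WT Tconv by 0.10, 0.16 and 0.17 in Nr4a-TKO preTreg, Foxp3-KO preTreg and WT Treg, and Psmd5 by -0.15, 0.10 and -0.04. The other Psmd10 probe differed by 0.16, -0.07 and -0.24 in the same order, none called, so its 2 probes disagree in direction. The 2 probes of Psmd9 also disagreed. The brighter was not called. The other was called lower than WT Tconv in Nr4a-TKO preTreg (-0.74) and WT Treg (-0.71) and not in Foxp3-KO preTreg (-0.12). That probe was also called higher in Foxp3-KO preTreg than in WT Treg (0.60), and lower in Nr4a-TKO preTreg than in Foxp3-KO preTreg (-0.62). The largest difference among the 48 members belonged to Psmc3ip, the recombination factor outside the proteasome. It read -0.39 and -0.15 in Nr4a-TKO preTreg and -1.08 and -1.52 in WT Treg, against -0.28 and -0.20 in WT Tconv, and it fell by 1.06 on the log2 scale in WT Treg (adjusted p = 0.00829). WT Treg was also lowest in the proliferation sum, whose part in this was not tested.

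Genes that work beside the proteasome were counted from lists in the same fit. Each count against WT Tconv stands beside the share of all genes called, which was 48.2% in Nr4a-TKO preTreg, 24.8% in Foxp3-KO preTreg and 35.4% in WT Treg, and beside the median of all genes, -0.10 in Nr4a-TKO preTreg, -0.10 in Foxp3-KO preTreg and -0.09 in WT Treg. Of 17 proteasome-associated genes tested, Nr4a-TKO preTreg had 2 called higher and 3 lower than WT Tconv (29.4%, median -0.10), Foxp3-KO preTreg 1 and 2 (17.6%, median -0.15), and WT Treg 2 and 4 (35.3%, median -0.23). Pomp, the maturation factor of the core, read 5.24 and 5.18 in Nr4a-TKO preTreg, 4.96 and 4.90 in Foxp3-KO preTreg and 4.77 and 4.79 in WT Treg, against 5.18 and 5.17 in WT Tconv. It was called lower than WT Tconv in WT Treg (-0.39, adjusted p = 0.00906) and Foxp3-KO preTreg (-0.24, adjusted p = 0.0476), and higher in Nr4a-TKO preTreg than in WT Treg (0.43, adjusted p = 0.00741) and Foxp3-KO preTreg (0.28, adjusted p = 0.0255). Usp14, a deubiquitinase of the cap, was lower in WT Treg than in WT Tconv (-0.51) and higher in both precursor groups than in WT Treg (0.47 in Nr4a-TKO preTreg and 0.33 in Foxp3-KO preTreg, all called).

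Ubqln4, a shuttle that brings ubiquitinated proteins to the cap, exceeded every proteasome gene in WT Treg against WT Tconv, though not in Nr4a-TKO preTreg against WT Tconv, where it differed by -0.23 and was not called. It read -1.41 and -1.38 in Nr4a-TKO preTreg, -0.45 and -0.31 in Foxp3-KO preTreg and -0.12 and -0.26 in WT Treg, against -1.15 and -1.19 in WT Tconv. Nr4a-TKO preTreg was lowest and WT Treg highest, with Foxp3-KO preTreg near WT Treg. It was called higher than WT Tconv in Foxp3-KO preTreg (0.79) and WT Treg (0.98), and lower in Nr4a-TKO preTreg than in WT Treg (-1.21 ± 0.08 SE, adjusted p = 0.000879). Uchl5, another deubiquitinase of the cap, was called lower than WT Tconv in Nr4a-TKO preTreg (-0.42) and WT Treg (-0.61).

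Of 12 regulators of proteasome genes, 8 were called in Nr4a-TKO preTreg against WT Tconv, 4 higher and 4 lower (66.7%, against 48.2% of all genes). In Foxp3-KO preTreg 2 were called (16.7%, against 24.8%) and in WT Treg 3 (25%, against 35.4%). The list's median was -0.24 in Nr4a-TKO preTreg, 0.04 in Foxp3-KO preTreg and -0.14 in WT Treg. Mafg, a small Maf partner of the factors that bind antioxidant elements, read 4.55 and 4.19 in Nr4a-TKO preTreg, 2.35 and 1.75 in Foxp3-KO preTreg and 2.32 and 2.31 in WT Treg, against 2.42 and 2.43 in WT Tconv. It was high only on the Nr4a-TKO preTreg arrays among these 8, by 1.95 over WT Tconv (adjusted p = 0.00208). Nfe2l2, which encodes the antioxidant factor NRF2, read 2.24 and 2.12 in Nr4a-TKO preTreg, 2.77 and 2.94 in Foxp3-KO preTreg and 2.14 and 2.11 in WT Treg, against 2.94 and 2.94 in WT Tconv. It was called lower than WT Tconv in Nr4a-TKO preTreg (-0.76) and WT Treg (-0.81), and higher in Foxp3-KO preTreg than in WT Treg (0.73). Keap1, the adaptor that targets NRF2 for degradation, was called lower than WT Tconv in Nr4a-TKO preTreg (-0.52), Foxp3-KO preTreg (-0.48) and WT Treg (-0.50). Stat3, a cytokine-activated transcription factor, was called higher than WT Tconv in Nr4a-TKO preTreg (1.21), Foxp3-KO preTreg (0.61) and WT Treg (1.04).

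Of 11 regulators of immunoproteasome genes, 6 were called higher and 1 lower in Nr4a-TKO preTreg than in WT Tconv, where 21.4% of all genes were called higher and 26.8% lower. In Foxp3-KO preTreg 5 were called higher and 0 lower, where 10.4% and 14.4% of all genes were, and in WT Treg 6 higher and 0 lower, where 13.8% and 21.6% were. The list's median was 0.33 in Nr4a-TKO preTreg, 0.34 in Foxp3-KO preTreg and 0.34 in WT Treg. Irf8, a transcription factor of the interferon regulatory family, was higher in Nr4a-TKO preTreg (2.34), Foxp3-KO preTreg (2.43) and WT Treg (1.73), and myeloid and B cells are known to express it too, and their marker sums, given above, were higher in these groups too; their part in this was not tested. Nfkb1, an NF-kB subunit, was also higher in Nr4a-TKO preTreg (0.97), Foxp3-KO preTreg (0.66) and WT Treg (0.88). The same held for Nlrc5, the transactivator of class I genes, at 0.27 in Nr4a-TKO preTreg, 0.30 in Foxp3-KO preTreg and 0.37 in WT Treg. Ifngr2, a chain of the interferon gamma receptor, was called lower in Nr4a-TKO preTreg than in WT Tconv (-1.59), WT Treg (-1.08) and Foxp3-KO preTreg (-1.33).

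Of 14 interferon-response genes, 3 were called higher and 6 lower in Nr4a-TKO preTreg than in WT Tconv, 8 higher and 0 lower in Foxp3-KO preTreg, and 5 higher and 1 lower in WT Treg. These calls made up 64.3% of the list in Nr4a-TKO preTreg, 57.1% in Foxp3-KO preTreg and 42.9% in WT Treg, and its median was -0.17 in Nr4a-TKO preTreg, 0.50 in Foxp3-KO preTreg and 0.18 in WT Treg. Rtp4 and Ifit1, both interferon-induced, fell by 1.01 and 1.05 in Nr4a-TKO preTreg against WT Tconv. Gbp3, a guanylate-binding protein, was higher in Nr4a-TKO preTreg (3.50), Foxp3-KO preTreg (1.40) and WT Treg (2.12), so the list did not move one way. Immunoproteasome subunits were not called in any of these comparisons.

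In the class I peptide loading pathway, which receives the peptides that proteasomes make, 4 of 11 genes were called higher and 1 lower in Nr4a-TKO preTreg than in WT Tconv, 3 and 3 in Foxp3-KO preTreg, and 2 and 4 in WT Treg. These calls made up 45.5% of the list in Nr4a-TKO preTreg, 54.5% in Foxp3-KO preTreg and 54.5% in WT Treg, and its median was -0.02 in Nr4a-TKO preTreg, 0.19 in Foxp3-KO preTreg and 0.01 in WT Treg. The heavy chain genes H2-K1 and H2-D1 were higher in all 3 groups, by 0.79 and 0.88 in Nr4a-TKO preTreg, 0.48 and 0.54 in Foxp3-KO preTreg, and 0.66 and 0.63 in WT Treg. Calr and Pdia3, chaperones of the loading complex, were lower than WT Tconv in Foxp3-KO preTreg (-0.50 and -0.50) and WT Treg (-0.60 and -0.50). Tap1, a peptide transporter subunit that in the RefSeq annotation of build GRCm38.p6 lies between Psmb9 and Psmb8 on chromosome 17, read 2.26 and 2.41 in Nr4a-TKO preTreg, against 2.79 and 2.80 in WT Treg. It was called lower there (-0.46 ± 0.12 SE, adjusted p = 0.0305), while its neighbours Psmb8 and Psmb9 differed by 0.08 and 0.17 in the same comparison and were not called.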

How the data were processed

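RNA of 8 samples was measured on one-colour Agilent arrays, labelled with Cy3 from 10 ng of RNA per the labels' protocols. The scanner files came from Agilent Feature Extraction 10.7.1.1, per the submitters' processing notes. The values used are the deposited processed intensity, which per the file headers is background-subtracted and spatially detrended, and the authors' deposited matrix of linear signal, whose arrays each have a 75th percentile near 1, was an alternative. Control spots and outlier flags were left out, spots of a probe were averaged, and log2 intensity was taken minus the array's 75th percentile. RefSeq accessions gave a symbol to 28026 of 55681 probes. The brightest probe stood for a gene, and a gene was tested if it was well above background, by the file's flag, on both arrays of a group (13496 genes). Differences and calls given for other probes of a gene come from a separate fit of single probes.

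One limma 3.58.1 model (R 4.3.3; lmFit and eBayes without trend, 4 residual and 1.59 prior degrees of freedom) held the 4 groups, and p-values were adjusted by Benjamini-Hochberg over genes within each of 6 comparisons. The precision is limited by the number of arrays, 2 per group. The procedure was tested on simulated data. Members, classes, lists and the rule for named genes were chosen with earlier results of these data known: catalytic subunits and activators, the 6 largest called differences each way per comparison, the member of each class with the smallest adjusted p, and up to 4 genes per list by smallest adjusted p. Lid and ring genes beyond these, and list genes such as Uchl5, Keap1 and Stat3, were named with their values seen. Marker lists for dendritic cells, thymic epithelium, red cells and double-positive thymocytes were also read. Alternatives (quantile and median scaling, normexp on median pixel signals with an offset of 50, filters, probe means, an intensity trend, 2-group fits, a replicate block and left-out arrays) are given in the closing section. Figures were drawn with matplotlib 3.10.9. One gene of the regulator lists is counted but not reported here by name.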

Additional observations from a re-analysis of the deposited data

How the results depend on the processing

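Counts of called members are given against 14 in WT Treg against WT Tconv, 7 in Nr4a-TKO preTreg against WT Tconv, 6 in Foxp3-KO preTreg against WT Tconv, 12 in Nr4a-TKO preTreg against WT Treg, 0 in Foxp3-KO preTreg against WT Treg and 5 in Nr4a-TKO preTreg against Foxp3-KO preTreg. Scaling to each array's median gave 29 in WT Treg against WT Tconv (0 higher and 29 lower) and 21 in Foxp3-KO preTreg against WT Tconv (0 and 21), and it moved the median of all genes by -0.15 in both. Over all genes it turned 1866 higher and 2913 lower into 1471 and 4233 in WT Treg, 1400 and 1944 into 1133 and 3894 in Foxp3-KO preTreg, 2628 and 2155 into 2898 and 1418 in Nr4a-TKO preTreg against WT Treg, and 2440 and 2124 into 2760 and 1375 in Nr4a-TKO preTreg against Foxp3-KO preTreg, where the members became 6 and 0. Quantile normalization gave 3 in Foxp3-KO preTreg against WT Tconv (2 higher and 1 lower), 8 higher and 2 lower in Nr4a-TKO preTreg against WT Treg, and 3 and 2 in Nr4a-TKO preTreg against Foxp3-KO preTreg. The shares of all genes called there were 21.5%, 35.8% and 34.0%. Without the filter on dim probes, where more genes are tested, the first 4 counts were 7, 4, 1 and 4. With an intensity trend, WT Treg against WT Tconv had 22, Nr4a-TKO preTreg against WT Treg 19, Foxp3-KO preTreg against WT Treg 2 and Nr4a-TKO preTreg against Foxp3-KO preTreg 13. The shares of all genes called in these were 39.0%, 39.7%, 9.63% and 38.1%. Fitting only the groups compared, with fewer samples, gave 1 in Foxp3-KO preTreg against WT Tconv, 4 in Nr4a-TKO preTreg against WT Treg and 0 in Nr4a-TKO preTreg against Foxp3-KO preTreg. There 9.52%, 29.0% and 6.59% of all genes were called. Requiring all 8 arrays above background gave 1 in Foxp3-KO preTreg against WT Treg, where 8.74% of all genes were called. A minimum of 1.5-fold left 2, 1, 1, 1, 0 and 0, in the opening order. Counts under normexp and with the mean of all probes stayed within 1.5 times of those in the opening. For the other changes the cause was not tested.

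With the replicate number as a block, 3 were called in Foxp3-KO preTreg against WT Tconv and 3 in Nr4a-TKO preTreg against Foxp3-KO preTreg. There 21.8% and 30.8% of all genes were called. In that fit 10 of 198 differences of named genes lost their call, at limma adjusted p of 0.0503 to 0.06745: Psma1 in WT Treg and Psmc1, Psmc5 and Psme1 in Foxp3-KO preTreg and Psmd6 in Nr4a-TKO preTreg, each against WT Tconv, Psmb4, Psmb5 and Psmc5 in Nr4a-TKO preTreg against WT Treg, and Psmc5 and Psmc6 in Nr4a-TKO preTreg against Foxp3-KO preTreg. Deviations of same-numbered samples correlated at -0.01, -0.03 and -0.02 with WT Tconv and at 0.26, 0.15 and 0.19 among the other groups, so not over 0.1 in every pair of groups, and the numbers were not taken as pairs. The B cell and myeloid sums were higher on replicate 1 than on replicate 2 in each of the 3 groups other than WT Tconv. Leaving out 1 array gave 3 to 15, 1 to 8, 0 to 6, 1 to 15, 0 to 0 and 0 to 7 in the opening order, with the lowest counts of WT Treg and Foxp3-KO preTreg against WT Tconv without a WT Tconv array. Where a group then held 1 array, it was assumed to vary like the others. With a WT Tconv array left out, the share of all genes called against WT Tconv fell as well. No difference of a named gene that was called reversed, and of 42 called differences 15 held under all 10 alternatives other than left-out arrays. The deposited matrix changed none of the 198 calls. Psmb9 in Foxp3-KO preTreg against WT Tconv, 0.34 and not called, was called under quantile normalization (0.44, limma adjusted p = 0.0481) and with an intensity trend (adjusted p = 0.0446). Probes' 75th percentile stood 7.97 to 9.20 times over local background, and 2 arrays per group limit what can be called.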

Other observations

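The marker sums not given above, in units of the array's 75th percentile, were as follows. The 5 regulatory T cell genes summed to 227.3 and 176.0 in Nr4a-TKO preTreg, 145.7 and 128.1 in Foxp3-KO preTreg and 272.6 and 258.0 in WT Treg, against 30.5 and 31.9 in WT Tconv. The 8 T cell markers summed to 1144 and 1186 in Nr4a-TKO preTreg, 1135 and 1179 in Foxp3-KO preTreg and 1066 and 1077 in WT Treg, against 1371 and 1401 in WT Tconv. The 8 dendritic cell markers, of which 1 was above background on no array, summed to 550.5 and 473.9 in Nr4a-TKO preTreg, 487.8 and 429.0 in Foxp3-KO preTreg and 424.1 and 397.5 in WT Treg, against 383.4 and 401.2 in WT Tconv. Siglech, at 8.38 and 8.35 on the log2 scale in Nr4a-TKO preTreg against 8.55 and 8.61 in WT Tconv, makes up most of that sum. Of the 7 tested, 5 were called higher than WT Tconv in Nr4a-TKO preTreg (median difference 3.89), 5 in Foxp3-KO preTreg (3.20) and 4 in WT Treg (1.90). The 5 double-positive thymocyte markers summed to 2.002 and 3.005 in Nr4a-TKO preTreg, 3.105 and 6.704 in Foxp3-KO preTreg, 1.917 and 1.379 in WT Treg, and 4.035 and 3.711 in WT Tconv. Against WT Tconv, 2 were called lower in Nr4a-TKO preTreg, 2 in WT Treg and 0 in Foxp3-KO preTreg, and 3 were called lower in Nr4a-TKO preTreg than in Foxp3-KO preTreg. Their part in the proteasome values was not tested. On the 8 arrays markers of thymic epithelium lay between 1.57 and 3.195, with 3 of 8 above background on no array. Those of red cells lay between 0.0496 and 0.113, with 2 of 3 above background on none.

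Within the interferon-response list, Usp18, which removes ISG15 from proteins, was called lower in Nr4a-TKO preTreg than in WT Tconv (-0.43), and higher in Foxp3-KO preTreg (0.56) and WT Treg (0.46). Ifit3 was likewise called lower in Nr4a-TKO preTreg (-0.69) and higher in Foxp3-KO preTreg (0.68) and WT Treg (0.52), and Irgm1, an interferon-induced GTPase, was called in Foxp3-KO preTreg only among these 3 comparisons (0.55, against 0.06 in Nr4a-TKO preTreg and 0.19 in WT Treg).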
